A study of Mus musculus with 4 samples.

Results

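The respiratory chain genes described here are the nuclear genes for the subunits of complexes I, III, IV and V, together with cytochrome c, as the array names them. They were chosen by symbol: every probe spot outside the control spots whose gene name begins with Ndufa, Ndufb, Ndufc, Ndufs, Ndufv, Cox4 to Cox8, Uqcr or Atp5, or is Cyc1 or Cycs. The rule found 143 spots, 134 different probes and 91 genes on an array of 55681 probes, and 90 of the 91 genes were among the 19698 genes tested. The one left out was Cox8c, a testis form of a complex IV subunit, whose only probe was not well above background on any array. The names also bring in 11 genes that are not subunits of these 4 complexes. These are 7 Ndufaf genes, which encode assembly factors of complex I, then Atp5s and Atp5sl, which current RefSeq names call Dmac2l and Dmac2, the pseudogene entry Atp5c1-ps, and Cycs. Complex I is counted below with the 38 other Nduf genes, complex III with 9 genes, complex IV with 18 and complex V with 15.

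Oxidative phosphorylation moves electrons from NADH and succinate through complexes I, II, III and IV to oxygen, with cytochrome c carrying them between complexes III and IV. The protons pumped on the way drive complex V, the ATP synthase. Most subunits are encoded in the nucleus and imported into mitochondria, a small core set is made inside mitochondria from the mitochondrial genome, and neurons depend on the pathway for the ATP that synaptic transmission consumes.

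RNA immunoprecipitation (RIP) recovers the RNA that comes down with an antibody, here from corticohippocampal lysate of 8-week-old male C57BL/6 mice incubated for 3 h with beads carrying CPEB2 IgG or control IgG. CPEB2 is an RNA-binding protein that recognizes the cytoplasmic polyadenylation element (CPE) and controls translation, and the comparison asks which transcripts its antibody recovers beyond a non-specific IgG. There were 2 arrays for each antibody and the lysate was divided between antibodies, so CPEB2 IgG 1 was set against control IgG 1 (experiment 1) and CPEB2 IgG 2 against control IgG 2 (experiment 2). One text field of the CPEB2 IgG samples names CPEB3, whereas their titles and protocol name CPEB2. No array of the input lysate was analysed here, so a lower value means less signal relative to control IgG and gives no absolute amount. The position of an array on the slide went with its antibody throughout, and these cannot be told apart.

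Between 67.6% and 73.5% of the probes were well above background on an array, and no spot was saturated. Precision is limited by there being 2 arrays for each antibody. The 8 neuron markers checked had signals between 913.8 and 33204 on every array and none passed the test. The signals given below are the processed signals of the scanner software, in arbitrary units and before scaling between arrays. A log2 fold change is CPEB2 IgG over control IgG after each array was scaled to its 75th percentile, as the mean of the 2 experiments with its SD. Adjusted p values are from limma with the experiment as a block, over all genes tested, with a threshold of 0.05.

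Probe letters are shown first because the CPE and the polyadenylation signal are the sequence features that a CPEB protein is known to work with. Each line gives 30 bases of a 60-base probe, 5′ to 3′ on the transcript strand, with the matched letters in capitals and mm9 coordinates of the probe. The first 4 hold AATAAA, the usual polyadenylation signal, and come from a gene far below 0 (Ndufv1) and from genes near or above 0 (Cox4i2, Cox7a2l, Cox8a). The last is the only probe of the set with the CPE letters searched, TTTTAT or TTTTAAT.
Ndufv1, chr19:4007508-4007567, minus strand: gggaaactggacAATAAAcaagtgctgtcc
Cox4i2, chr2:152590711-152590770, plus strand: actcccttctccAATAAAagcagcctgctt
Cox7a2l, chr17:83901272-83901331, minus strand: attgaccggactgcggAATAAAcactggaa
Cox8a, chr19:7289652-7289708, minus strand: cccctttgtaacAATAAAgtctatttaaac
Uqcrc1, chr9:108851008-108851487, plus strand: tgctccaagtacTTTTATgaccaatgtcca

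The Uqcrc1 probe covers 480 bases of genome for its 60 bases, so it crosses a splice junction. CPE letters were in 1 of the 134 probes of the set (0.746%) and in 4.54% of the 55615 probes scaled, and their reverse complement in 15.7% and 6.51%. AATAAA was in 29.1% of the set's probes and in 10.1% of all probes, its reverse complement TTTATT in 0.746% and 3.74%. The reverse complement of the shorter CPE can overlap the polyadenylation signal in part, so these shares are not independent. Among the set's tested genes, 25 were tested with a probe that holds AATAAA, and their median log2 fold change was -1.59, whereas that of the 65 other genes was -1.42. Genes on either side of 0 therefore carried the same letters at their probes. The CPE letters of the Uqcrc1 probe are a single case in the set. Over all genes tested, the 1132 whose probe held these letters had a median log2 fold change of 0.54, against -0.14 for the 18566 others. Of the genes with the letters, 39.1% were higher and 7.86% lower, against 20.1% and 21.2% of the others. Genes with TTTATT at their probe differed in the same direction, with a median of 0.25 against -0.13. Of these genes, 31.2% were higher and 12.7% lower, against 20.7% and 20.8% of the others. The medians with and without AATAAA were -0.19 and -0.10, and for the reverse complement of the CPE letters -0.05 and -0.12. These differences were not tested. These matches describe 60-base windows and not the whole transcripts.

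Of the 90 genes tested, 71 (78.9%) were lower with CPEB2 IgG and none was higher. Over all genes tested, 20.4% were lower and 21.2% were higher, so 50.9% of the calls in the whole table were higher, whereas no call in the set was. With median centring 61.2% of all calls were higher, and 1 call in the set was, that of Cox8a. At an unadjusted p under 0.05, 78 of the 90 genes passed. The median log2 fold change of the set was -1.45, with medians of -1.52 in experiment 1 and -1.45 in experiment 2, against -0.11 for all genes tested. A fall of more than 1 on the log2 scale was seen in 67 genes and of more than 2 in 19.

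The median signal over the set's genes was 28326 and 24177 on the control IgG arrays, and 8035 and 7862 on the CPEB2 IgG arrays. Since most of these genes were bright, the test was also run again on bright genes alone, with p values adjusted over those genes. Among the 8085 genes with a signal above 1000 on at least 1 array, 32.7% were lower, and 74 of the set's 82 genes (90.2%) were. Both CPEB2 IgG arrays lay below both control IgG arrays for 84 of the 90 genes (93.3%) and for 38.2% of all genes. The 6 that did not separate this way were Cox4i2, Ndufa8 and Cox8b, whose arrays overlapped, and Cox8a, Cox7a2l and Ndufaf1, whose CPEB2 IgG arrays were both above. A rule of more than 1.5-fold mean enrichment over the experiments with a signal above 1000 on a CPEB2 IgG array was met by 16.4% of all genes. In the set 1 gene met it, Cox8a, narrowly at 1.52-fold. The study's methods used cutoffs of this kind and also required a CPE in the 3′-UTR, a step left out here.

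**Figure D1:**
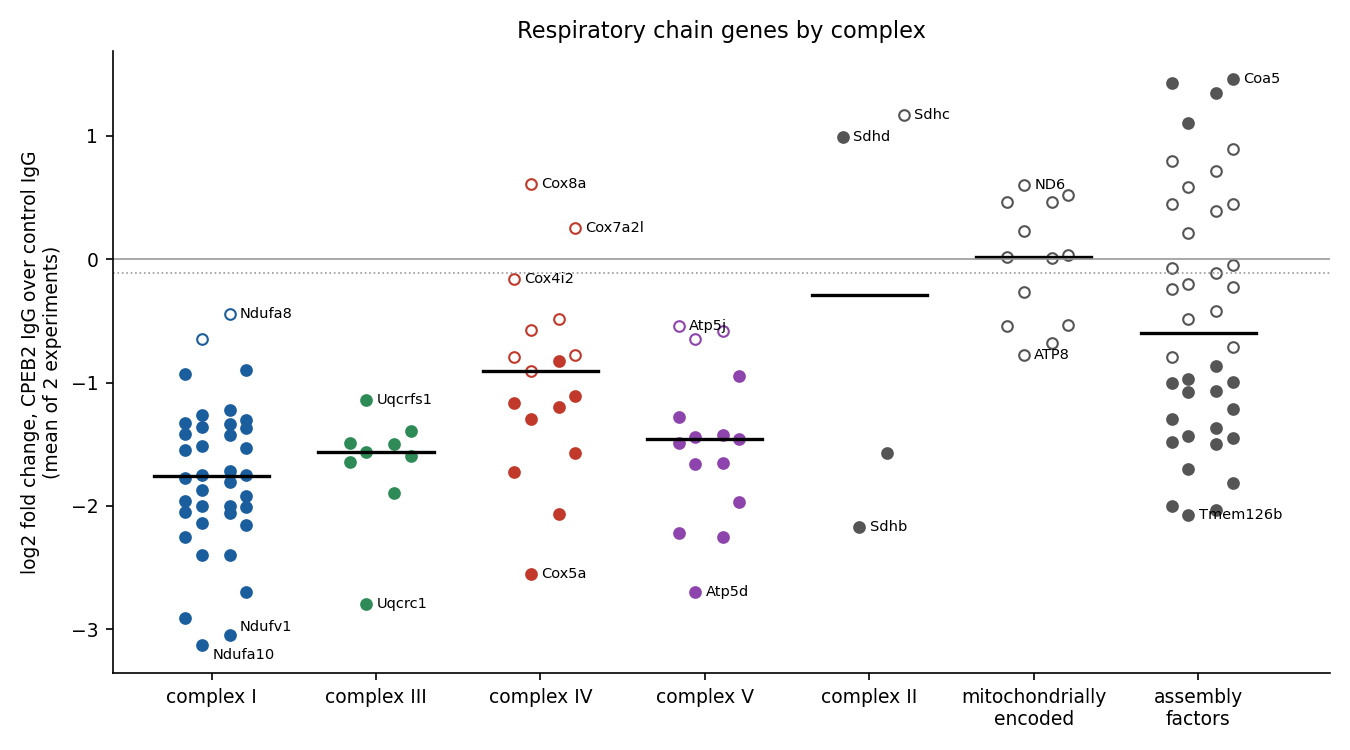
Each point is a gene, plotted as its mean log2 fold change (CPEB2 IgG over control IgG, 2 experiments) in the column of its complex or list. Filled points passed the limma threshold, open points did not, thick bars are medians, the grey line is 0 and the dotted line is the median of all genes tested (-0.11). Complex I, III and V lie almost wholly below -0.5, complex IV reaches above 0, and the 13 mitochondrially encoded genes lie around 0.

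In both experiments 85 of the 90 genes were below 0, 3 were above 0 in both, and 2 (Ndufa8 and Cox4i2) had opposite signs. The experiments used separate lysates, so each gives its own reading of the set.

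**Figure D2:**
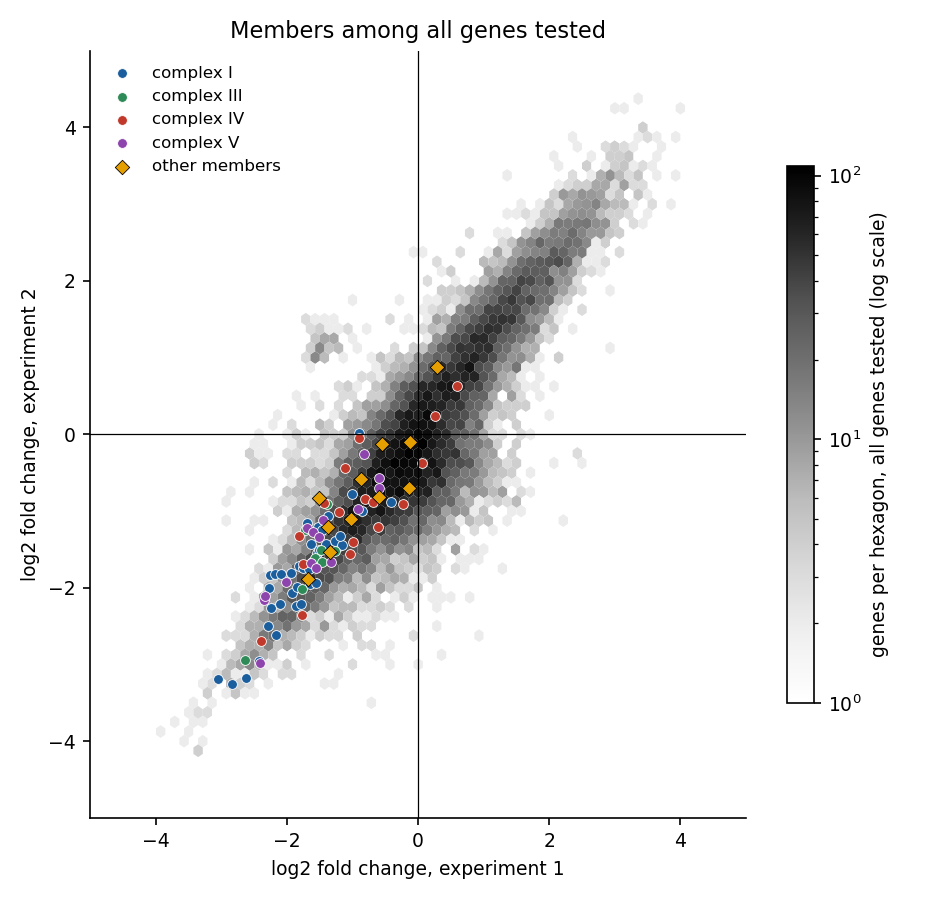
Log2 fold change in experiment 1 (x axis) against experiment 2 (y axis). Grey hexagons count all 19698 genes tested on a log scale, and coloured points are the respiratory chain genes by complex, with assembly factors, Cycs and the other named members as diamonds. The members lie along the lower left arm, and none is among the 140 genes that were below -1 in experiment 1 and above 0.5 in experiment 2.

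Complex I, NADH dehydrogenase, was the most uniform of the large groups. Of its 38 genes, 36 were lower, none was higher, and the median log2 fold change was -1.76 ± 0.04 (SD of the 2 experiments' medians). The lowest was Ndufa10, an accessory subunit, whose probe maps to chr1:94361039-94363996 on the minus strand of mm9 and spans an intron. Its signal was 345.6 and 363.2 on the CPEB2 IgG arrays, against 3044 and 3383 on the control IgG arrays. The antibodies did not overlap, and the difference was 8.73-fold (log2 fold change -3.13 ± 0.10, SD, n = 2, adjusted p = 0.00543).

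Ndufv1 binds the flavin at which NADH is oxidized. Its signal was 4484 and 3373 on the CPEB2 IgG arrays, against 33922 and 32800 on the control IgG arrays. This was 8.27-fold lower (log2 fold change -3.05 ± 0.30, SD, n = 2, adjusted p = 0.00543). Ndufa11, a subunit of the membrane arm, had signals of 1131 and 835.3 on the CPEB2 IgG arrays, against 7420 and 7708 on the control IgG arrays, a 7.5-fold difference (log2 fold change -2.91 ± 0.39, SD, n = 2, adjusted p = 0.00543). In all 3 genes the control IgG arrays were close to each other and both CPEB2 IgG values were far below them.

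Complex I has a catalytic core that carries the flavin, the iron-sulfur clusters and the quinone site, and accessory subunits around it. The 6 nuclear core genes described here (Ndufs1, Ndufs3, Ndufs7, Ndufs8, Ndufv1 and Ndufv2) were all lower, at a median of -2.28, spread from -3.05 for Ndufv1 to -1.33 for Ndufs1, the large iron-sulfur subunit. The 31 genes counted as accessory are the other Nduf names described. They include Ndufa4, whose protein sits in complex IV, and its relative Ndufa4l2, which did not pass. Their median was -1.75, and 29 of them were lower. The accessory median was above the core median by 0.57 in experiment 1 and 0.62 in experiment 2. With 2 experiments no permutation test of that difference can pass the threshold, and the subunits are not replicates of each other. By name family, all 10 Ndufb genes, 8 Ndufs genes and 3 Ndufv genes were lower, as were 13 of the 15 Ndufa and Ndufab genes.

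**Figure D3:**
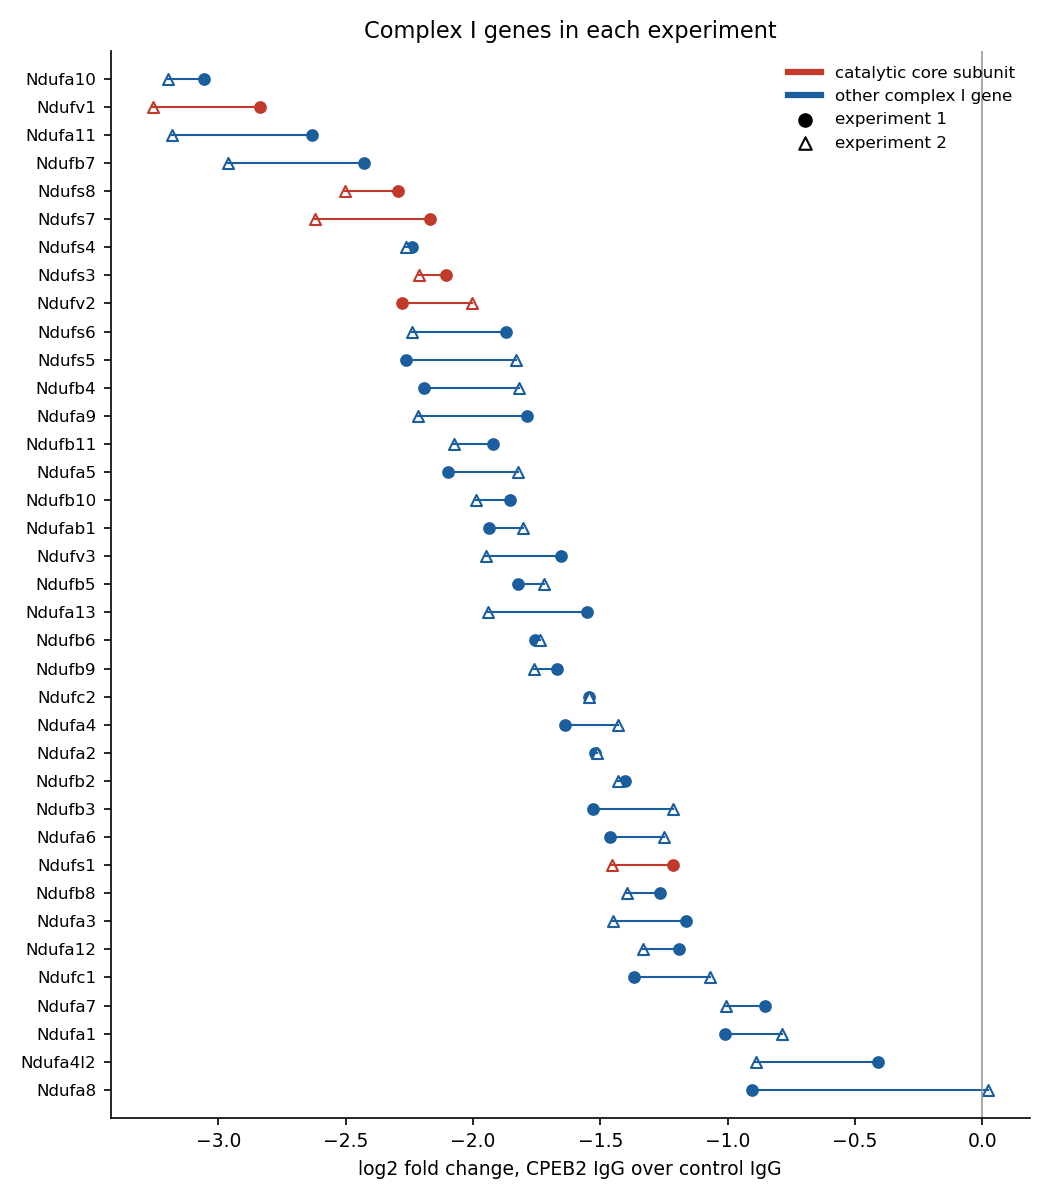
Complex I genes ordered by mean log2 fold change, with experiment 1 as filled circles and experiment 2 as open triangles joined by a line. Red marks the 6 nuclear core subunits described and blue the other Nduf genes, counted as accessory. All values shown but that of Ndufa8 in experiment 2 (0.02) are below 0.

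The 2 complex I genes that did not pass were Ndufa8 and Ndufa4l2. Ndufa8, an accessory subunit on the intermembrane face, had signals of 5199 and 8640 on the CPEB2 IgG arrays, against 10318 and 8643 on the control IgG arrays. It was thus low in CPEB2 IgG 1 and at the control level in CPEB2 IgG 2 (log2 fold change -0.91 and 0.02, adjusted p = 0.315). Ndufa4l2 is a relative of Ndufa4 known to be induced by hypoxia. It was dim, with signals of 196.5 and 145.0 against 276.4 and 272.8 with control IgG (log2 fold change -0.65 ± 0.34, SD, n = 2, adjusted p = 0.104). Ndufa4 itself, which keeps its complex I name although the protein sits in complex IV, was 2.9-fold lower (log2 fold change -1.53 ± 0.15, SD, n = 2, adjusted p = 0.00955).

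The 7 Ndufaf assembly factors were less uniform than the subunits. Ndufaf2, Ndufaf6 and Ndufaf7 were lower, none was higher, and the median was -0.71. Ndufaf2, whose protein joins complex I late in its assembly, lay at -1.44 ± 0.13 on the log2 scale (SD, n = 2, adjusted p = 0.0109). Ndufaf1, which acts on the membrane arm, lay above 0 in both experiments. Its signal was 2467 and 3624 on the CPEB2 IgG arrays, against 2148 and 2005 on the control IgG arrays, and the log2 fold change of 0.58 ± 0.42 did not pass (SD, n = 2, adjusted p = 0.148). Its direction depended on the scaling, since it was -0.17 when arrays were centred within bins of probe GC content, and its probe has 35% G and C.

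Complex III, which passes electrons from ubiquinol to cytochrome c, was lower in all 9 of its genes. The count was 7 without a filter on dim probes, and 8 with GC centring and with scaling to the spike-in probes. It also fell without CPEB2 IgG 2 and without either control IgG array. The median of complex III was -1.56 ± 0.03 (SD of the 2 experiments' medians) and its range ran from -2.80 to -1.15. Uqcrc1, one of the 2 large core proteins and the gene whose probe holds the CPE letters shown above, had signals of 1336 and 1279 on the CPEB2 IgG arrays, against 8862 and 10027 on the control IgG arrays. The arrays were far apart, at 6.95-fold (log2 fold change -2.80 ± 0.21, SD, n = 2, adjusted p = 0.00543). The other core protein, Uqcrc2, was 3.13-fold lower (log2 fold change -1.65 ± 0.04, SD, n = 2, adjusted p = 0.00794).

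Uqcrq, a small subunit bound near cytochrome b, had signals of 16552 and 11323 on the CPEB2 IgG arrays, against 59973 and 46563 on the control IgG arrays (log2 fold change -1.90 ± 0.17, SD, n = 2, adjusted p = 0.00663). Among the redox subunits, Cyc1, cytochrome c1, had signals of 5269 and 4116 against 15415 and 13215 and was 2.95-fold lower (adjusted p = 0.00908). Uqcrfs1, the Rieske iron-sulfur protein, changed least in complex III, at 2.21-fold lower (adjusted p = 0.0243). Neither the core nor the redox subunits of complex III had an exception.

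Cytochrome c itself did not pass. The brightest of the 3 Cycs probes had signals of 15262 and 17501 on the CPEB2 IgG arrays, against 23610 and 19497 on the control IgG arrays, which did not overlap (log2 fold change -0.34 ± 0.29, SD, n = 2, adjusted p = 0.327). The second probe gave a mean of -0.69 and the remaining, dim one 0.18, with opposite signs in the 2 experiments. The gene for the carrier therefore differed from its reductase subunit Cyc1 in whether it passed, and the difference between them was not tested.

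Complex IV, cytochrome c oxidase, was the least uniform. Of its 17 genes tested, 14 were below 0 in both experiments, 2 were above 0 in both and 1 had opposite signs. By the test 9 were lower, none was higher and 8 did not pass, with a median of -0.91 ± 0.06 (SD of the 2 experiments' medians). This median was above that of complex I by 0.74 in experiment 1 and 0.88 in experiment 2, a difference that was not tested. Its count also moved with the settings: 5 genes were lower with scaling to the spike-in probes, 3 without a filter on dim probes, and 4 and 5 without control IgG 1 or control IgG 2.

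The lowest complex IV genes were Cox5a, Cox4i1 and Cox6b1, which encode general forms of the subunits found in brain. Cox5a had signals of 8883 and 7647 on the CPEB2 IgG arrays, against 49812 and 50258 on the control IgG arrays, a 5.85-fold difference (log2 fold change -2.55 ± 0.20, SD, n = 2, adjusted p = 0.00543). Cox4i1, the general form of the largest nuclear subunit, had signals of 27232 and 18005 against 98159 and 93711 (log2 fold change -2.06 ± 0.42, SD, n = 2, adjusted p = 0.007). Cox6b1, on the intermembrane face, lay at -1.72 ± 0.05 on the log2 scale (SD, n = 2, adjusted p = 0.00735). These values are of the size seen in complexes I and III.

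Cox8a, the general form of the smallest subunit, stood at the other end. Its signal was 305971 and 287009 on the CPEB2 IgG arrays, against 215624 and 188882 on the control IgG arrays. Both CPEB2 IgG arrays were above both control IgG arrays, by 1.52-fold (log2 fold change 0.61 ± 0.03, SD, n = 2), and the adjusted p of 0.0952 did not pass. A second Cox8a probe gave 196222 and 186461 against 120015 and 113011, a mean log2 fold change of 0.77 in the same direction. Under 4 of 18 other settings Cox8a passed as higher, and its log2 fold change stayed between 0.50 and 0.83 over all of them.

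Cox7a2l, known as a factor that holds complexes III and IV together in supercomplexes, was the other complex IV gene above 0 in both experiments. Its brightest probe had signals of 42235 and 41447 on the CPEB2 IgG arrays, against 37261 and 35720 on the control IgG arrays (log2 fold change 0.25 ± 0.02, SD, n = 2, adjusted p = 0.428). Its other probes had means of 0.26 and 0.07, and the gene passed under none of the 18 other settings. Its value was closer to the median of all genes than to that of complex IV.

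Tissue-specific forms can be set beside the general forms, within each gene only. For the fourth subunit, Cox4i1 was lower and Cox4i2, the form known from lung, was not, with signals of 586.0 and 424.4 against 599.1 and 559.6 and a mean of -0.16 ± 0.30 on the log2 scale (SD, n = 2, adjusted p = 0.638). The sign of Cox4i2 turned with the scaling, to 0.40 with GC centring and 0.06 with median centring. For the subunit encoded by Cox6a1 and Cox6a2, the heart and muscle form Cox6a2 was lower (log2 fold change -1.20 ± 0.29, SD, n = 2, adjusted p = 0.0205). Cox6a1, the general form, had signals of 106765 and 97259 against 183008 and 183020, with no overlap (log2 fold change -0.79 ± 0.14, SD, n = 2). It did not pass by a small margin (adjusted p = 0.0516), and it passed under 8 of the 18 other settings.

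For the seventh subunit, the muscle form Cox7a1 and the general form Cox7a2 were both lower, with log2 fold changes of -1.30 ± 0.37 and -1.16 ± 0.39 (SD, n = 2, adjusted p = 0.0186 and 0.0252). For the eighth, the muscle form Cox8b was dim, at 103.3 and 49.7 against 251.4 and 101.8, and was lower by -1.11 ± 0.13 on the log2 scale (SD, n = 2, adjusted p = 0.0214), whereas Cox8a was not. After scaling, the Cox8b arrays of the 2 antibodies overlapped, and without the block it did not pass (adjusted p = 0.179). The calls of Cox6a2, Cox7a1, Cox7a2, Cox7b and Cox8b were lost without control IgG 1, those of the first 4 also without control IgG 2, and those of Cox7a1, Cox7b and Cox8b without CPEB2 IgG 2. Cox8b also lost its call without CPEB2 IgG 1. Over the other settings, the highest adjusted p was 0.0744 for Cox6a2, 0.0997 for Cox7a1, 0.0831 for Cox7a2, 0.257 for Cox7b and 0.547 for Cox8b. The testis-associated forms Cox6b2 and Cox7b2 did not pass (log2 fold changes -0.91 and -0.57, adjusted p = 0.0511 and 0.164), although Cox6b2 passed as lower under 7 of 17 other settings and Cox7b2 under 1, with values from -1.47 to -0.28 and from -1.32 to -0.18.

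Of 7 heart and muscle markers, 5 were also lower and none was higher, and their summed signal was 1100 to 1752 with CPEB2 IgG and 4689 to 4837 with control IgG. Most of that sum was Myh7, at 1268 and 693.8 with CPEB2 IgG against 3520 and 3375 with control IgG, and Ckm lay above control IgG in experiment 1. Of the 7 markers, 5 were well above background on all arrays. Tnni3, Myh6 and Ckm were dim, with signals of at most 96.9, 79.0 and 21.7 on any array. Markers of the other cell types moved in both directions: 2 of 5 astrocyte markers were lower and 2 higher, 2 of 5 oligodendrocyte markers lower, 2 of 5 microglia markers lower and 1 higher, 1 of 4 endothelial and 1 of 3 testis markers lower, and neither of the 2 liver markers passed. Within an experiment both antibodies received parts of one lysate, and between the 2 lysates fewer cells of a type and less RNA per cell cannot be told apart. The part of such RNA in the values of Cox6a2, Cox7a1, Cox8b and the rest of the set was not tested.

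**Figure D4:**
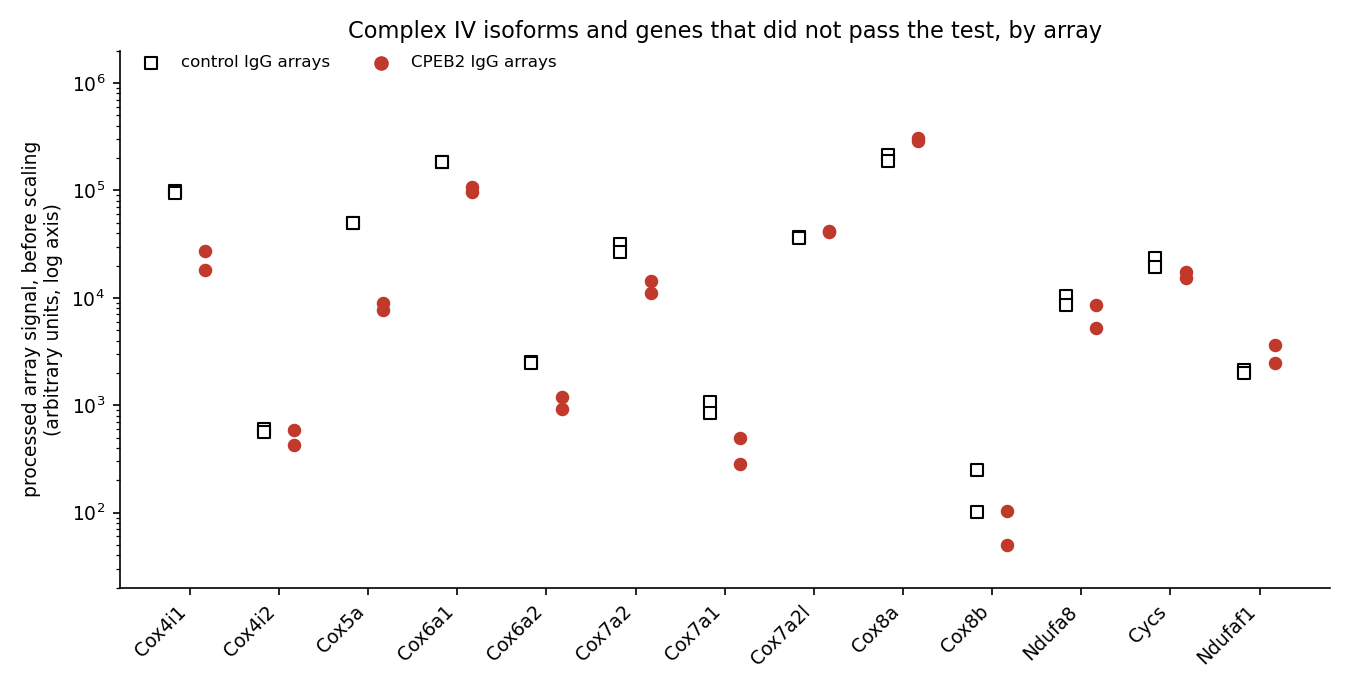
Processed signal on each of the 4 arrays for complex IV isoforms and for genes that did not pass, on a log axis in arbitrary units. Open squares are the control IgG arrays and red circles the CPEB2 IgG arrays. The circles lie below the squares for Cox4i1 and Cox5a, above them for Cox8a, Cox7a2l and Ndufaf1, and among them for Cox4i2.

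Complex V, the ATP synthase, had 12 of 15 genes lower and none higher, with a median of -1.46 ± 0.16 (SD of the 2 experiments' medians). All 15 were below 0 in both experiments. Atp5d, a subunit of the central stalk, had signals of 5403 and 3836 on the CPEB2 IgG arrays, against 30585 and 30779 on the control IgG arrays, a 6.49-fold difference (log2 fold change -2.70 ± 0.40, SD, n = 2, adjusted p = 0.00543). Atp5b, the catalytic beta subunit, had signals of 23353 and 26440 against 125804 and 120222 (log2 fold change -2.25 ± 0.13, SD, n = 2, adjusted p = 0.00554). Atp5o, which joins the peripheral stalk to the catalytic head, was 4.66-fold lower (log2 fold change -2.22 ± 0.16, SD, n = 2, adjusted p = 0.00562).

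By position in the enzyme, 4 of the 5 genes of the catalytic head and central stalk were lower, and 3 of the 4 of the peripheral stalk. All 3 small membrane subunits with Atp5 names, Atp5j2, Atp5k and Atp5l, were lower. The genes that did not pass were one from each of the other places: Atp5e in the central stalk (log2 fold change -0.58 ± 0.02, SD, n = 2, adjusted p = 0.104), Atp5j in the peripheral stalk (-0.54 ± 0.41, adjusted p = 0.167) and Atp5g1 in the c ring. A list of 5 genes associated with the enzyme, Atp5s and Atp5sl among them, had 2 lower, none higher and 3 that did not pass. Atpif1, the inhibitor of the enzyme's reverse reaction, was lower (log2 fold change -2.18 ± 0.32, SD, n = 2, adjusted p = 0.00611), as was Atp5s. Usmg5 and 2010107E04Rik, bright genes of the list without Atp5 names, did not pass (-0.15 ± 0.12 and -0.06 ± 0.22, adjusted p = 0.638 and 0.856).

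Atp5g1, Atp5g2 and Atp5g3 encode the same mature c subunit behind different import sequences, so their transcripts can be compared where their product cannot. Atp5g3 had signals of 11768 and 12443 on the CPEB2 IgG arrays, against 50379 and 48110 on the control IgG arrays, 3.92-fold lower (log2 fold change -1.97 ± 0.06, SD, n = 2, adjusted p = 0.00615). Atp5g2 was 1.93-fold lower (log2 fold change -0.95 ± 0.04, SD, n = 2, adjusted p = 0.0306). Atp5g1 had signals of 44568 and 39449 against 71751 and 64958 (log2 fold change -0.65 ± 0.07, SD, n = 2, adjusted p = 0.0816). By the brightest probes the 3 genes were in the same order in both experiments, with gaps larger than their SDs. The other detected probe of Atp5g2 was at -1.06 in experiment 1 and at -0.70 in experiment 2, where the brightest probe of Atp5g1 was also at -0.70. Atp5g1 passed as lower under 3 of the 18 other settings. Atp5g3 kept its call under all 18 other settings and Atp5g2 under 10, the latter losing it without CPEB2 IgG 2 and without either control IgG array. Over all other settings, the highest adjusted p of Atp5g2 was 0.172, with scaling to the spike-in probes.

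Atp5g1 was also 1 of 3 genes with detected probes that moved in opposite directions in both experiments. Its probes are 3998 bases apart on mm9 and are shown as 30 bases each, with capitals on the 16 bases that the most other gene names on the array share.
Atp5g1 brightest probe, chr11:95934315-95934374, minus strand: tttaccattaAACAACAACAACAACAacaa
Atp5g1 second probe, chr11:95930317-95930376, minus strand: gagttggCTCAGTGGTTAAGAGCgccgact

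The second probe lies downstream of the first on the transcript strand. It gave 7656 and 8017 on the CPEB2 IgG arrays, against 6908 and 7211 on the control IgG arrays, a mean log2 fold change of 0.20. The brightest probe shared a run of 16 bases with probes of 8 other gene names and the second with 3, whereas 107 of the set's 134 probes shared none. Whether these probes read the same transcript was not tested.

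Over the 30 genes with more than 1 detected probe, the probes lay within 1 log2 unit of each other in 26. All probes were below 0 on average in 23 genes and above 0 in 2, Cox8a and Cox7a2l. The probes of the other 5 fell on both sides of 0. The other genes with probes opposite in both experiments were Ndufaf4, with probe means of -0.11 and 0.17, and Ndufaf5, with -0.42 for the brightest and 0.49 for a dim one, and neither gene passed. The widest spread among called genes was that of Ndufv3, a small complex I subunit with a long and a short isoform, whose probes ranged from -2.36 to -0.43.

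**Figure D5:**
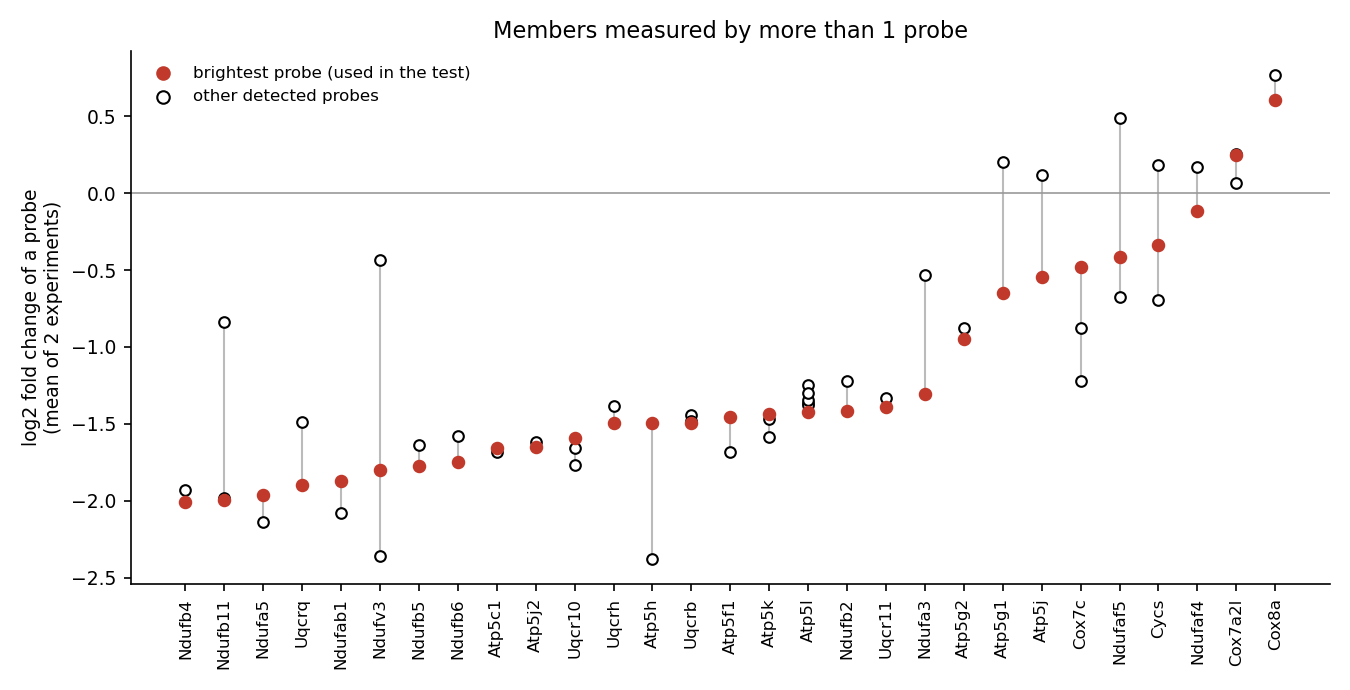
Mean log2 fold change of every detected probe of genes with more than 1, with genes ordered by the brightest probe (red), which stood for the gene in the test. Open circles are the other probes and grey lines span them. Most genes keep their probes together below -1, both exceptions of complex IV keep theirs above 0, and Atp5g1, Atp5j, Cycs, Ndufaf4 and Ndufaf5 straddle 0.

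Complex II, succinate dehydrogenase, is not in the rule and was set beside the set from a list. Its 4 genes divided by position in the enzyme. Sdhb, the iron-sulfur subunit, had signals of 8899 and 7364 on the CPEB2 IgG arrays, against 41617 and 34457 on the control IgG arrays (log2 fold change -2.17 ± 0.04, SD, n = 2, adjusted p = 0.00562), and Sdha, the flavoprotein, was lower as well (-1.57 ± 0.16, adjusted p = 0.00907). The membrane anchors lay on the other side of 0. Sdhd was higher, at 13342 and 20973 against 9148 and 8347 (log2 fold change 0.99 ± 0.51, SD, n = 2, adjusted p = 0.0481), and lost its call under 7 of the 18 other settings, among them those without CPEB2 IgG 2 and without either control IgG array. The highest adjusted p of Sdhd was 0.138, without control IgG 2. Sdhc, at 7371 and 14559 against 5170 and 4445, had a log2 fold change of 1.16 ± 0.81 that did not pass (SD, n = 2, adjusted p = 0.0539). It passed under 8 of the 18 other settings, with values from 0.16 to 1.66. Sdhd and Sdhc were both higher above control in experiment 2 than in experiment 1.

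The 13 mitochondrially encoded subunits, which belong to the same complexes but are transcribed and translated inside mitochondria, were all tested, and limma called none in either direction. At an unadjusted p under 0.05, ATP8 and ATP6, both subunits of complex V, passed. The median was 0.02, and values ran from -0.78 for ATP8 to 0.60 for ND6. Their median was above that of the 79 nuclear subunit genes tested by 1.62 in experiment 1 and 1.5 in experiment 2, a difference that was not tested. As an example, CYTB, the mitochondrially encoded part of complex III, had signals of 85149 and 140242 on the CPEB2 IgG arrays, against 72057 and 129670 on the control IgG arrays, which overlapped.

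Assembly factors of all complexes, 40 genes from a list that includes the 7 Ndufaf genes, had 18 lower and 4 higher, with a median of -0.60. The lowest were Tmem126b and Ecsit, of the complex I assembly machinery, and Pet112, a mitochondrial translation protein, at 0.237, 0.25 and 0.244 of the control IgG level (adjusted p = 0.00767, 0.00605 and 0.00601). The largest rises were those of Coa5 and Cox18, which act on complex IV, and Sdhaf2, which helps to attach the flavin of complex II, with log2 fold changes of 1.46, 1.43 and 1.35 (adjusted p = 0.0121, 0.0148 and 0.0198). All 6 had the same sign in both experiments. Cox18 and Sdhaf2 each lost their calls under 3 of the 18 other settings, among them those without control IgG 1 and control IgG 2, respectively. Over the other settings Cox18 ran from 0.68 to 1.76 and Sdhaf2 from 0.34 to 1.64. Coa5 lost its call with the probes of each gene averaged.

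Among 20 regulators of respiratory genes, 3 were lower and 6 were higher, with a median of 0.37. Gabpb1 and Gabpa, the subunits of the transcription factor NRF-2 that acts on many respiratory promoters, rose by 2.85 ± 0.05 and 2.42 ± 0.69 on the log2 scale (SD, n = 2, adjusted p = 0.00543 and 0.00739). With the probes of each gene averaged, the values fell to 1.07 for Gabpb1 and 1.21 for Gabpa, and without a filter on dim probes Gabpa did not pass (adjusted p = 0.051). Tfb2m, a mitochondrial transcription factor, rose by 1.84 ± 0.40 (adjusted p = 0.00834). Lrpprc, which stabilizes mitochondrial mRNAs, Polrmt, the mitochondrial RNA polymerase, and Tfb1m, an rRNA methyltransferase, were lower, at -1.98, -1.68 and -1.55 (adjusted p = 0.00638, 0.00781 and 0.00933).

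Ribosomal protein genes, which also encode large complexes, give the set a scale. Of 75 mitochondrial ribosomal protein genes tested, 50 were lower and 4 were higher, with a median of -1.34. The cytosolic group was taken by name, Rpl or Rps followed by a digit, and so holds entries that are not ribosomal protein genes. Among these are Rps19bp1, its lowest at -1.87, and the pseudogene entry Rpl34-ps1, its highest at 2.76. Of the 97 genes tested in this group, 35 were lower and 19 were higher, with a median of -0.61. The set's median lay below that of the mitochondrial ribosomal genes by 0.21 and 0.13 in the 2 experiments. It lay below that of the cytosolic group, with those other entries in it, by 0.84 and 0.97. These values are given as a description.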

How the data were processed

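RNA recovered by RIP with CPEB2 IgG or control IgG was measured on 4 one-color Agilent arrays, 2 per antibody, from 0.2 µg of RNA per sample. The authors deposited the output of Feature Extraction 10.5.1.1, whose values are spot intensities after background correction in the software, with no scaling between arrays. Probe coordinates and gene names are those of the array annotation (mm9). Of the 91 member symbols, 88 are current RefSeq symbols and 3 are synonyms.

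Spots marked as non-uniform or outliers were left out, 66 of 55681 probes without a value on an array were dropped, and log2 intensity was set relative to each array's 75th percentile over 55615 probes. Repeated spots were averaged. The brightest probe among those well above background on at least 2 arrays stood for each gene. limma 3.58.1 in R 4.3.3 was fitted to 19698 genes with the experiment as a block, which leaves 1 residual degree of freedom beside 3.67 from the prior, with Benjamini-Hochberg adjustment. The script was tested on simulated data. The pairing comes from the divided lysate, and arrays of one experiment deviated together (correlation over genes 0.203). The labels do not say how many animals gave each lysate, so p values rest on the spread between these 2 experiments. limma drew each gene's spread towards a value shared by all genes, so they do not measure that gene's spread alone. Python 3.11.15, numpy 2.4.6, pandas 2.3.3 and matplotlib 3.10.9 made the tables and figures.

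Genes were named by rule: the 3 lowest called genes of each complex, every member called higher or above 0 in both experiments, isoform pairs, Cyc1, Cycs, complex II, members whose probes opposed each other, and the 3 largest called changes per direction in the other lists. Genes named outside the rule (among them Ndufs1, Uqcrfs1, Atp5e, Ndufaf2, Ndufa8, Ndufv3, Atpif1, CYTB and the groups by position in an enzyme) were picked with their values in view. The members and lists were chosen with earlier results of these data known. The alternatives were other scalings, background correction, filters, probe summaries, marked spots kept, an intensity trend, no block and each array left out. No genome or protein sequence was used here. A gene of the set, which stays in the fits and totals, and a probe sequence are not reported here.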

Additional observations from a re-analysis of the deposited data

How the results depend on the processing

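Each count and median was recomputed under 18 other settings, and all medians of the set and its 4 complexes stayed below 0 under each. The median of all genes was -0.11 as reported and moved by 0.23 with median centring, 0.13 with quantile normalization and -0.11 with the percentile over probes detected on all arrays, while the set's median minus that of all genes stayed between -1.66 and -1.25. Without the replicate block the calls were 73 lower and 0 higher in the set, 36, 9, 9 and 12 lower in complexes I, III, IV and V, and no call count changed by more than 1.5 times.

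The lower calls over all genes fell to 1837 without a filter on dim probes, 2642 of 8085 genes with a signal above 1000, and 2624 with spike-in scaling, and ranged from 2390 to 4251 with 1 array left out. The higher calls fell to 2265 without a filter. Higher calls made up 50.9% of all calls as reported and 61.2% with median centring. In the set, 2 higher calls appeared with an intensity trend and 2 with normexp correction (Cox8a and Ndufaf1 in both), 1 with median centring and 1 with the signal filter (Cox8a), and 0 to 1 with 1 array left out. In complex IV, lower calls fell to 3 without a filter and 5 with spike-in scaling, and ranged from 4 to 11 with 1 array left out. Lower calls in the other respiratory lists fell from 23 to 15 without a filter.

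Medians moved by more than their SD over the experiments as follows. With the percentile taken over probes detected on all arrays, the set, complex I, complex III and complex IV were at -1.56, -1.87, -1.67 and -1.02. With median centring they were at -1.22, -1.53, -1.34 and -0.68, and complex V at -1.23. With quantile normalization they were at -1.30, -1.61, -1.39 and -0.83, and complex V at -1.24. With spike-in scaling they were at -1.36, -1.67, -1.47 and -0.82. Without scaling, the set, complex I and complex III were at -1.50, -1.81 and -1.62. With GC centring complex III was at -1.41 and complex IV at -1.18. Averaging probes put complex I at -1.71, normexp correction put complex IV at -0.83, and the signal filter put the set at -1.51 and complex IV at -1.16. With 1 array left out the set ranged from -1.57 to -1.39, complex I from -1.82 to -1.70, complex III from -1.67 to -1.45 and complex IV from -1.18 to -0.81.

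Among named genes, 8 values changed sign, none of them called. Cox4i2 was at 0.40 with GC centring, 0.065 with median centring, and between -0.39 and 0.070 with 1 array left out. Ndufaf1 was at -0.17 with GC centring. Ndufaf4 was at 0.19 with GC centring, 0.026 with probes averaged and 0.11 with median centring, and Ndufaf5 at 0.22 with GC centring. Of the other named values, 812 kept their direction and their side of the threshold, 51 lost a call and 38 gained one, and the causes were not tested. Leaving out control IgG 1 or 2 lowered the set's calls from 71 to 55 and 60. Dim probes and 2 arrays per antibody limit what could be called.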
